A study of Mus musculus with 20 samples.

Results

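The genes described here are the nuclear-encoded subunits of the 5 complexes of oxidative phosphorylation in mouse antral follicles. They were chosen by symbol (Nduf, Uqcr, Atp5, Sdha to Sdhd, and Cox4 to Cox8, without pseudogene symbols) within the set marked as kept in the deposited table. Of 98 such symbols in the count table of 39253 genes, 91 were kept and all 91 were tested. They comprise 38 genes of complex I, 4 of complex II, 8 of complex III, 16 of complex IV, 17 of complex V and 8 assembly factors of complex I (Ndufaf1 to Ndufaf8). The genes Ndufa4 and Ndufa4l2 carry complex I names and were counted with complex IV. The 7 symbols that were not kept were Cox6a2, Cox7b2, Cox8b, Cox8c, Ndufa11b, Ndufb4b and Ndufs6b.

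Female CD-1 mice, an outbred stock, were given water alone or water with iodoacetic acid, a disinfection by-product, at 10 or 500 mg/L. Exposure lasted 35 days from day 40 of life. Antral follicles, fluid-filled and late in growth, hold an oocyte within granulosa and theca cell layers and were dissected at 75 days. Each library pools the follicles of 1 mouse, so the 20 libraries are 20 animals. Experiment 1 held 5 control mice (replicates 6 to 10) and 5 mice at 500 mg/L, and experiment 2, a month apart from it, held 5 control mice (replicates 1 to 5) and 5 mice at 10 mg/L. The study set each dose against all 10 controls. Dose and experiment cannot be told apart in that comparison, so each dose is also given against the controls of its own experiment.

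Complex I (NADH dehydrogenase) and complex II (succinate dehydrogenase) pass electrons to ubiquinone, complex III passes them to cytochrome c, and complex IV (cytochrome c oxidase) passes them to oxygen. Complex V, the ATP synthase, uses the proton gradient that complexes I, III and IV build to make ATP. Most subunits are nuclear genes and a few core ones are encoded by mitochondrial DNA. Of 26 symbols listed for the latter, which include alternative spellings of the same genes, 0 were in the count table. In the follicle, the growing oocyte holds many mitochondria and depends on oxidative metabolism, and granulosa cells supply it with pyruvate.

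Library totals ran from 41.7 to 51.0 M estimated counts (M, mega) in the controls, 39.9 to 51.5 M at 10 mg/L and 43.1 to 67.5 M at 500 mg/L. Values below are CPM, counts scaled to a common library size by trimmed means. Markers of granulosa cells summed to between 10607 and 21026 CPM, those of theca cells to between 1319 and 7249 CPM and those of the oocyte to between 329 and 713 CPM. The library of replicate 2 at 10 mg/L stood apart from the rest. It held 114 CPM of 3 RNAs that lack a poly(A) tail (Rnu1a1, Rmrp and Rpph1), against at most 2.29 CPM in any other mouse. Counts, medians and leading genes that use the mice at 10 mg/L are therefore also given without it. In bulk follicles, fewer cells of a type and less RNA per cell cannot be told apart.

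In the control mice of experiments 1 and 2 the 91 genes took up 0.981% ± 0.0284 and 1.00% ± 0.0258 of all counts (SD, n = 5 each). The share was 0.964% ± 0.0864 at 10 mg/L and 0.947% ± 0.0216 at 500 mg/L (SD, n = 5 each). The wide spread at 10 mg/L includes replicate 2.

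Levels were compared between genes per kilobase of a representative transcript, as mean CPM per kilobase over the 20 mice. Complex V had the highest median level, at 180, followed by complex IV at 126, complex III at 111, complex II at 81.5 and complex I at 68.8. The assembly factors of complex I, which build the enzyme but are not part of it, had a median of 10.0. In complex V the catalytic beta subunit Atp5b led at 590, followed by Atp5g3, a gene for the membrane ring subunit c, at 494 and the alpha subunit Atp5a1 at 346. In complex IV Cox4i1, the common isoform of subunit 4, stood at 356, Cox6a1 at 301 and Cox6c at 274. In complex V the lowest were Atp5mpl at 131, Atp5j2 at 108 and Atp5g1 at 105. In complex III the hinge protein gene Uqcrh led at 245, ahead of the small subunits Uqcr11 at 135 and Uqcr10 at 133, and the lowest were the core protein gene Uqcrc2 at 97.9, the Rieske protein gene Uqcrfs1 at 74.1 and Uqcrq at 56.5. In complex I Ndufa6 led at 182, with Ndufb8 at 154, and the lowest were Ndufv3 at 30.6, the acyl carrier protein gene Ndufab1 at 22.4 and Ndufb4 at 12.1. Of the assembly factors, Ndufaf2 (23.3), Ndufaf5 (16.2) and Ndufaf1 (15.5) were highest and Ndufaf3 (8.90), Ndufaf4 (6.38) and Ndufaf6 (4.53) lowest. Succinate dehydrogenase was led by Sdha, the flavoprotein that oxidises succinate, at 101, with the iron-sulfur subunit Sdhb at 84.3 and the membrane anchors Sdhd and Sdhc at 78.6 and 32.0. The ranges of complexes I to V overlapped, from 105 to 590 in complex V and from 12.1 to 182 in complex I. Ranks depend on the transcript chosen, and which isoforms the follicles express was not tested. The transcripts of Uqcrq (85.9 CPM), Ndufab1 (78.1 CPM) and Sdhc (102 CPM) had 1521, 3479 and 3171 bases. Before scaling by length Sdhc lay above Sdhb (96.3 CPM) and Sdhd (96.8 CPM), and Uqcrq above Uqcr11 (60.1 CPM) and Uqcr10 (57.6 CPM). Ndufb4, the lowest of complex I, stood at 57.4 with the counts of its copy Ndufb4c added, above Ndufv3 and Ndufab1.

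**Figure D1:**
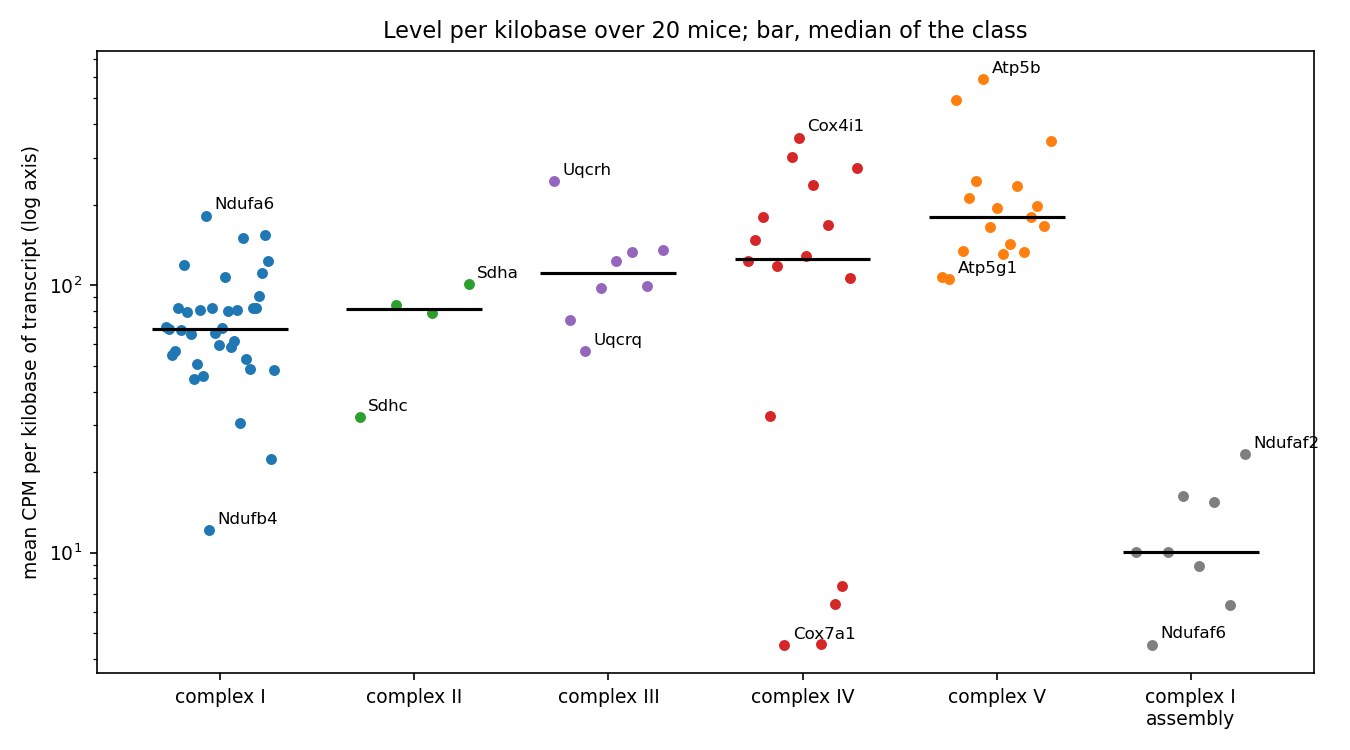
Mean CPM per kilobase of transcript over 20 mice (log axis) for the 89 genes with a matched transcript, by complex, 1 point per gene, with the median of each class as a bar. Complex V has the highest median (180) and the assembly factors of complex I the lowest (10.0); 4 genes of complex IV lie under 10.

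Complex IV held the lowest subunits as well as some of the highest, and several of its subunits have paralogs on separate rows. Cox4i2, known as the isoform of lung and of low oxygen, had 7.47 CPM per kilobase against 356 for Cox4i1. Cox7a1, the heart and muscle isoform, had 4.51, against 123 for Cox7a2 and 169 for Cox7a2l. Cox6b2, known as the testis isoform, had 6.44 against 180 for Cox6b1, and Ndufa4l2, a low-oxygen target, had 4.56 against 128 for Ndufa4. The 3 genes for subunit c of complex V, which encode the same mature protein, stood at 494 for Atp5g3, 235 for Atp5g2 and 105 for Atp5g1.

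Spread between mice was smaller for these genes than is common in the table. The residual SD of log2 CPM within groups and experiments had a median of 0.125 over the 91 genes and 0.246 over all genes tested (a description). Genes were not matched for level, and the part of level in this difference and in those between classes was not tested. By class the median was 0.0741 in complex II, 0.107 in complex III, 0.111 in complex V, 0.121 in complex I, 0.161 in the assembly factors and 0.213 in complex IV. The most variable genes were Cox7b (0.499), Cox7c (0.482), Cox4i2 (0.481) and Cox7a1 (0.417), all of complex IV, followed by Ndufa4l2 (0.358), the assembly factor Ndufaf4 (0.272), Cox6b2 (0.267) and Ndufs4 of complex I (0.245). Of these, Cox7a1, Cox6b2, Ndufa4l2 and Cox4i2 had low mean levels over the mice, at 1.77, 3.56, 4.26 and 5.43 CPM. Cox7c, Ndufaf4, Ndufs4 and Cox7b stood at 17.5, 23.2, 86.3 and 106 CPM.

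Cox7b, which encodes a small subunit of complex IV, fell on either side of a gap that did not follow the groups, a pattern noticed after its values were seen. In 10 mice it lay between 68.4 and 80.6 CPM and in the other 10 between 108 and 164 CPM. The lower set held 2 of 5 controls of experiment 1, 3 of 5 controls of experiment 2, 2 of 5 mice at 10 mg/L and 3 of 5 at 500 mg/L. All 4 groups were thus on both sides of the gap.

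No subunit gene passed the test at either dose. Against all 10 controls, 0 of 91 genes had an adjusted p under 0.05 at 10 mg/L, where 0.00561% of the 17810 genes tested passed, and 0 of 91 at 500 mg/L, where 0.0112% passed (edgeR quasi-likelihood test, Benjamini-Hochberg adjustment). Against the controls of their own experiment the count was again 0 of 91 at each dose, with 0% of all genes passing. With both doses in 1 term and experiment as a term, 0 of 91 passed and 0.0112% of all genes did. Between the doses 0 of 91 passed, where 0.0112% of all genes did, and in the difference between the effects of the doses 0 of 91 and 0% of all genes did. On the same comparisons limma-trend called 0 of 91 in each. DESeq2 called 1 of 91 at 500 mg/L against all controls (Atp5e), out of 84 genes that it passed in all. Between the doses DESeq2 called 3 (Atp5e, Cox7c and Ndufs7), out of 114 genes in all. In the others it called 0 of 91, with 7 to 31 genes passing in all. Counts at an unadjusted p under 0.05 stood above the background for lower values at 500 mg/L and, with replicate 2, at 10 mg/L against all controls. Against all controls 22 of 91 genes were lower at 500 mg/L (4.18% of all genes) and 2 higher (4.51%), and at 10 mg/L 7 were lower (3.14%) and 1 higher (3.08%). Against their own controls 6 were lower at 500 mg/L (2.46%) and 3 at 10 mg/L (2.66%), with 0 higher at either dose, where 2.73% and 3.78% of all genes were. With both doses together 14 were lower (3.35%) and 1 higher (3.45%), between the doses 15 were lower at 500 mg/L (4.43%) and 5 higher (5.61%), with 58 of 91 negative at any p (50.4%), and in the difference between the effects 1 was lower (3.38%) and 0 higher (2.03%). Without replicate 2 at 10 mg/L the counts moved in each comparison, including those that do not set that mouse against others, where it enters through the shared spread and the expression filter. At 10 mg/L 0 were then lower (2.06% of all genes) and 2 higher (2.74%) against all controls, and 1 lower (2.02%) and 0 higher (3.72%) against their own. At 500 mg/L 26 were lower (4.74%) and 2 higher (4.64%) against all controls, and 14 lower (3.03%) and 0 higher (2.63%) against their own. With both doses together 7 were lower (2.84%) and 1 higher (3.34%), between the doses 32 were lower (4.79%) and 3 higher (4.25%), and in the difference between the effects 4 were lower (3.8%) and 1 higher (1.74%).

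The genes were slightly lower on balance in the mice at 500 mg/L. Set against the 5 controls of experiment 1, the log2 change was negative in 70 of 91 genes, where 49.5% of all genes tested were negative, and the median over the genes was −0.060, a change of −4.06%. The median over all genes tested was 0.002. Complex I had 33 of 38 negative (median −0.058), complex II 3 of 4 (−0.007), complex III 5 of 8 (−0.072), complex IV 12 of 16 (−0.079), complex V 12 of 17 (−0.040) and the assembly factors 5 of 8 (−0.086). The genes share samples and are not independent, so these counts carry no test.

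Deviations of log2 CPM were also taken, gene by gene, from the median of all 10 controls of both experiments. Mouse by mouse, their median over the genes went the same way. In the 5 mice at 500 mg/L this median was −0.108, −0.021, −0.068, −0.105 and −0.111 (replicates 1 to 5). In the 5 controls of experiment 1 it was 0.001, −0.047, 0.003, −0.083 and 0.004 (replicates 6 to 10). All 5 exposed mice were below 0, and the groups overlapped, since replicate 9 of the controls was lower than replicates 2 and 3 at 500 mg/L. The mean was −0.0826 at 500 mg/L and −0.0245 in the controls of experiment 1, which were thus also below 0 on average.

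At 10 mg/L the direction rested on 1 library. Against the controls of experiment 2 the log2 change was negative in 72 of 91 genes (49.9% of all genes), with a median of −0.050. Without replicate 2 at 10 mg/L, 39 of 91 were negative and the median was 0.008. Against all controls 63 of 91 were negative with all 5 mice (50.1% of all genes), with a median of −0.027, and 33 of 91 without replicate 2, with a median of 0.029. The median deviation per mouse was −0.006, −0.272, 0.055, 0.062 and −0.080 in replicates 1 to 5 at 10 mg/L. It was −0.036, 0.043, 0.038, −0.002 and −0.001 in the controls of experiment 2 (replicates 1 to 5). Replicate 2 had 81 of 91 genes below the control median, more than the 24 to 75 of any other mouse. Its median deviation was −0.313 in complex I, −0.080 in complex II, −0.294 in complex III, −0.233 in complex IV, −0.200 in complex V and −0.326 in the assembly factors, so each class was below 0. The part of its RNAs without a poly(A) tail in these low values was not tested.

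**Figure D2:**
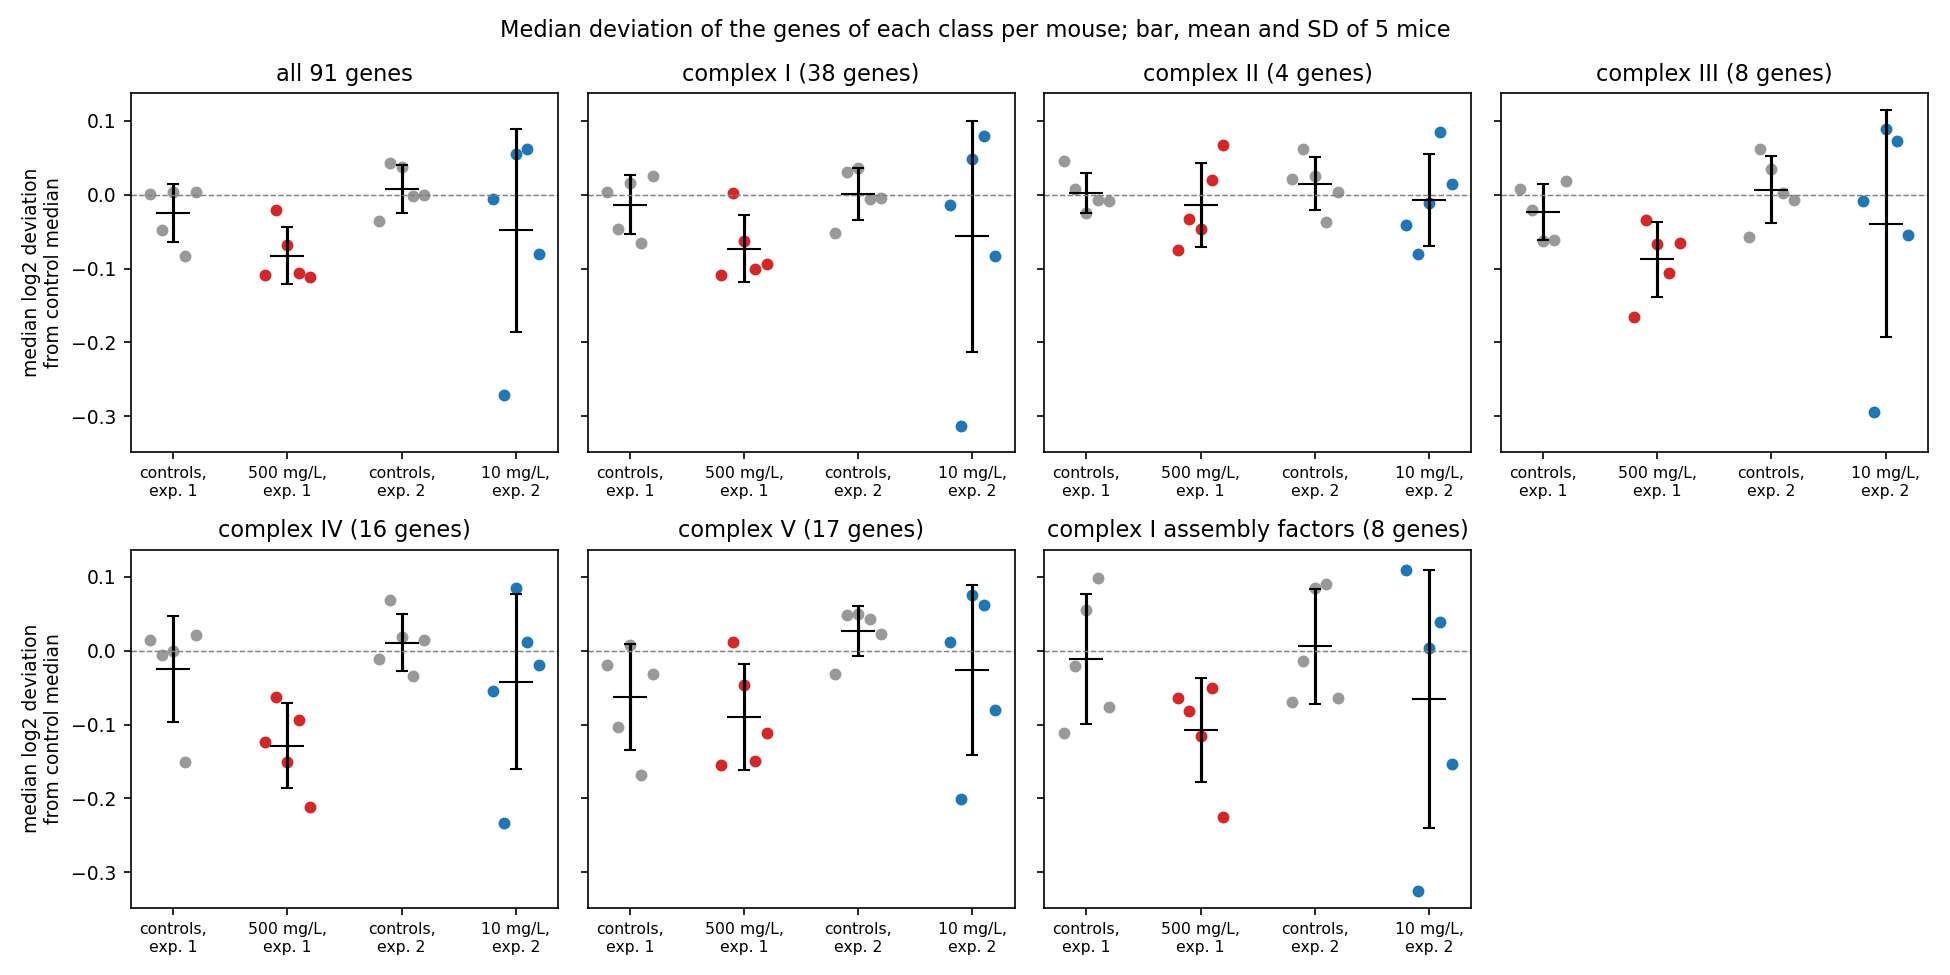
Median over genes of the deviation of log2 CPM from the median of all 10 controls, for all 91 genes and for each class, 1 point per mouse, with the mean and SD of 5 mice per group. The 5 mice at 500 mg/L lie below 0 for all 91 genes (−0.111 to −0.021), and at 10 mg/L replicate 2 (−0.272) lies apart from the other 4 (−0.080 to 0.062).

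With both doses together and experiment as a term, 72 of 91 genes were negative (49.0% of all genes), with a median of −0.056, and without replicate 2 at 10 mg/L 62 of 91 were, with a median of −0.034. In the same fit the core subunits showed small differences, and 0 of them passed. Ndufs1, which carries iron-sulfur clusters of complex I, stood at a log2 change of 0.03, the NADH-binding subunit Ndufv1 at −0.06 and the Rieske protein gene Uqcrfs1 of complex III at −0.04. Sdha and Sdhb each stood at 0.01, and Uqcrc1 of complex III, Cox4i1 and Atp5a1 each at −0.03. Of these 5, Uqcrc1 alone kept its sign when each mouse was left out in turn. Cox5a stood at −0.13, Ndufa4 at −0.12, Cox5b at −0.11 and Atp5b at −0.08. The 4 genes with the smallest p in that fit were Atp5e (−0.25), Atp5g1 (−0.17), Uqcr11 (−0.14) and Atp5g3 (−0.12), with edgeR adjusted p of 0.630, 0.630, 0.630 and 0.633. Sdha held at 293 ± 9.69 and 292 ± 15.7 CPM in the controls of experiments 1 and 2, at 287 ± 18.7 CPM at 10 mg/L and at 300 ± 9.76 CPM at 500 mg/L (SD, n = 5 each), with the groups overlapping.

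Atp5e, which encodes the epsilon subunit of the central stalk of the ATP synthase (gene 67126), had the smallest p of the 91 genes at 500 mg/L. It read 56.6, 71.4, 61.5, 65.1 and 59.8 CPM at 500 mg/L (replicates 1 to 5) and 85.0, 71.2, 66.5, 77.01 and 88.6 CPM in the controls of experiment 1 (replicates 6 to 10). In experiment 2 it read 85.1, 77.8, 105, 98.3 and 86.1 CPM at 10 mg/L (replicates 1 to 5) and 103, 102, 106, 98.4 and 108 CPM in the controls (replicates 1 to 5). Within each experiment the exposed mice were lower on average and overlapped the controls, and the controls of the 2 experiments did not overlap. Against its own controls the log2 change was −0.30 (SE 0.09) at 500 mg/L and −0.19 (SE 0.09) at 10 mg/L, with edgeR adjusted p of 0.831 and 0.767. Against all 10 controls it was −0.53 (SE 0.11, adjusted p = 0.173) at 500 mg/L and −0.00086 at 10 mg/L (adjusted p = 0.999).

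Ndufa4 and Uqcr11 were the 2 of 91 genes with every mouse at 500 mg/L below every control of experiment 1, a separation that 0.477% of all genes showed downwards. Ndufa4, which is bound to complex IV, read 63.9, 69.1, 68.8, 67.9 and 72.9 CPM at 500 mg/L against 77.5, 81.5, 74.0, 73.3 and 77.6 CPM in those controls. Relative to those controls it stood at −0.16 on the log2 scale (SE 0.08), with an edgeR adjusted p = 0.954. Uqcr11, a small subunit of complex III, read 55.0, 56.5, 51.4, 55.8 and 56.8 CPM against 63.9, 62.1, 57.3, 58.5 and 63.8 CPM. The log2 change of Uqcr11 came to −0.15 (SE 0.07), with the same edgeR adjusted p = 0.954. No gene lay above without overlap at 500 mg/L, where 0.455% of all genes did, and 0 of 91 did in either direction at 10 mg/L, where 0.5% of all genes lay above and 0.545% below.

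Cox6a1, the common isoform of subunit 6A, read 163, 158, 159, 144 and 154 CPM at 500 mg/L and 192, 201, 182, 158 and 185 CPM in the controls of experiment 1. Control replicate 9 lay within the range of the exposed mice and the other 4 controls lay above it. Its log2 change at 500 mg/L came to −0.24 (SE 0.08), with an edgeR adjusted p = 0.954. The largest change of the 91 genes against those controls was that of the muscle isoform Cox7a1, at −0.71 (SE 0.27, adjusted p = 0.954), on values of 0.902 to 1.67 CPM at 500 mg/L and 1.19 to 3.49 CPM in the controls. It also gave the smallest p in the difference between the effects of the doses, −0.87 (SE 0.38, edgeR adjusted p = 0.901).

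The other genes with the smallest p in each dose comparison did not pass either. Against all controls at 10 mg/L they were Ndufa12 (−0.21), Cox8a (−0.21), Ndufa13 (−0.20) and Ndufb3 (−0.19), with edgeR adjusted p of 0.727 to 0.758. Without replicate 2 these log2 changes were −0.13, −0.12, −0.11 and −0.15. Against their own controls at 10 mg/L Atp5g1 stood at −0.20, Atp5b at −0.15 and the small membrane subunit gene Atp5md at −0.12, all of complex V, with edgeR adjusted p of 0.751, 0.760 and 0.785. Without replicate 2 Atp5g1 stood at −0.18, Atp5b at −0.08, Atp5md at −0.07 and Atp5e at −0.14. At 500 mg/L against its own controls Atp5g3 stood at −0.16 (edgeR adjusted p = 0.954). Against all controls Atp5g3 (−0.20), Ndufa4 (−0.25) and Ndufc1 of complex I (−0.26) followed Atp5e, each with an edgeR adjusted p = 0.325. Between the doses Atp5e (−0.53), Ndufs7, a core subunit of complex I (−0.29), and Ndufc1 (−0.31) were lower at 500 mg/L in log2 terms, with edgeR adjusted p of 0.192, 0.223 and 0.233. In the difference between the effects of the doses Cox4i2 (0.78), Ndufaf1 (0.27) and Ndufaf5 (−0.24) followed Cox7a1, with edgeR adjusted p of 0.920, 0.934 and 0.934.

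**Figure D3:**
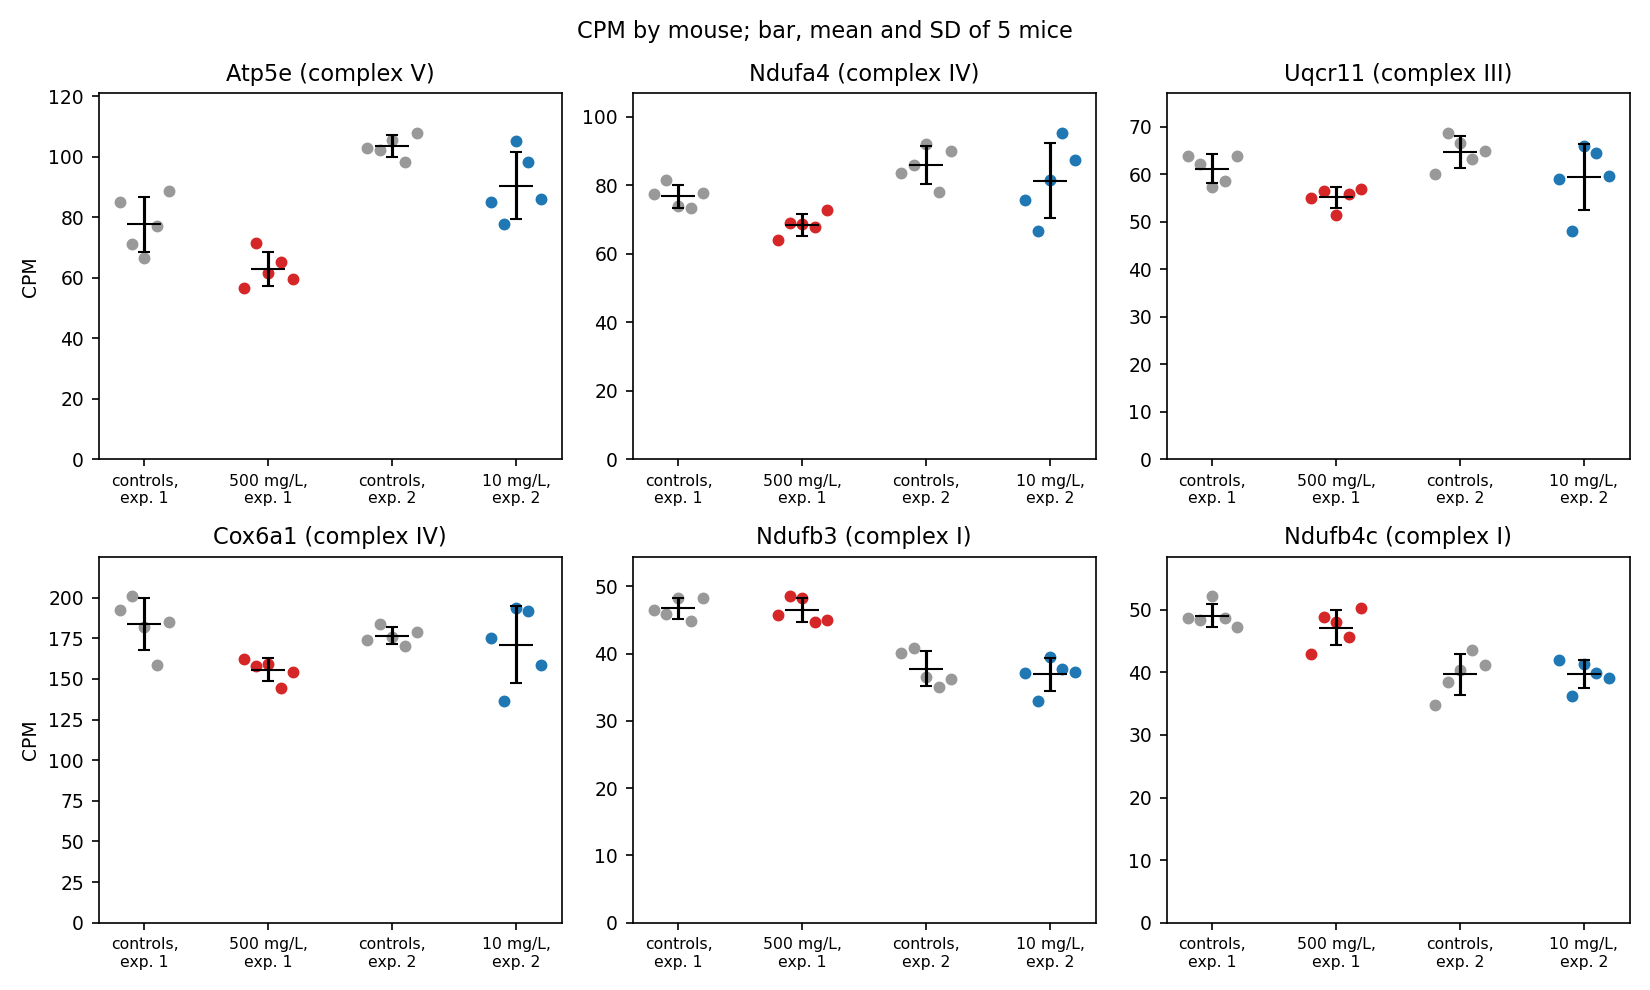
CPM by mouse of 6 genes in the 4 groups, with the mean and SD of 5 mice. Ndufa4 and Uqcr11 at 500 mg/L lie under the controls of experiment 1, while Ndufb3 is higher in experiment 1 (44.8 to 48.5 CPM) than in experiment 2 (32.9 to 40.9 CPM) without overlap, and Ndufb4c is at 43.0 to 52.2 CPM and 34.8 to 43.6 CPM, with a narrow overlap.

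Between the control mice of the 2 experiments, none of which received iodoacetic acid, 2 of the 91 genes passed, Cox7c and Ndufb3, both higher in experiment 1, where 0.157% of all genes tested passed (edgeR). At an unadjusted p under 0.05, 7 were higher (5.24% of all genes) and 16 lower (4.54%) in experiment 1. Replicate 2 at 10 mg/L enters this comparison through the shared spread and the expression filter. Without it 5 passed (Atp5e, Cox7c, Ndufa1, Ndufb3 and Ndufb4c), and the share of all genes that then passed was not counted. At an unadjusted p under 0.05, 10 were then higher (5.71%) and 19 lower (4.83%). The control sets did not overlap for 18 genes, 7 of them higher in experiment 1 (1.44% of all genes) and 11 lower (1.66%). Complex I went both ways, with Ndufb3, Ndufb4c, Ndufb9, Ndufa1, Ndufa13 and Ndufs6 higher and Ndufa2, Ndufa11, Ndufb2, Ndufb6 and Ndufc2 lower. The 5 genes of complex V in this group, Atp5b, Atp5e, Atp5j2, Atp5md and Atp5mpl, were lower in experiment 1. Over all 91 genes 57 were negative, where 49.7% of all genes were, and complex V had 15 of 17 negative, with a median of −0.047. Oocyte markers moved with this difference, 0 of 10 being positive, with summed levels of 334 to 531 CPM in experiment 1 and 412 to 642 CPM in experiment 2. Leukocyte markers were positive in 7 of 8, at 85.5 to 217 CPM and 73.6 to 112 CPM, and smooth muscle and pericyte markers in 7 of 7, at 576 to 1094 CPM and 524 to 872 CPM. Red cell markers were positive in 0 of 5 tested, at 17.1 to 63.1 CPM and 17.0 to 75.8 CPM, and theca markers in 2 of 8, at 1797 to 7249 CPM and 1319 to 4227 CPM. Granulosa markers were positive in 8 of 10 and endothelial markers in 7 of 10. Their part in the result was not tested.

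Ndufb3, an accessory subunit of complex I (gene 66495), separated the experiments whatever the mice drank. It read 46.5, 45.9, 48.3, 44.8 and 48.2 CPM in the controls of experiment 1 and 45.8, 48.5, 48.2, 44.8 and 45.05 CPM at 500 mg/L. In experiment 2 it read 40.2, 40.9, 36.6, 35.1 and 36.2 CPM in the controls and 37.1, 32.9, 39.6, 37.6 and 37.3 CPM at 10 mg/L. Each mouse of experiment 1 was above each mouse of experiment 2. The log2 difference between the control sets was 0.31 (SE 0.06, edgeR adjusted p = 0.0326), and against its own controls each dose stood at −0.01 and −0.03 for 500 and 10 mg/L. Leaving out control replicate 3, 4, 5, 6, 7, 8, 9 or 10 in turn ended the call, with adjusted p of 0.102, 0.0729, 0.119, 0.0611, 0.0721, 0.0935, 0.0524 and 0.0535. Between the doses, which share no controls but differ in experiment, Ndufb3 stood at 0.33 (SE 0.09, edgeR adjusted p = 0.227).

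Cox7c, the subunit 7C of complex IV (gene 12867), had the largest log2 difference between the control sets, and its coding sequence is shared with a pseudogene copy. It read 23.4, 18.5, 28.1, 26.3 and 21.5 CPM in the controls of experiment 1 and 7.97, 6.604, 7.91, 7.31 and 5.67 CPM in those of experiment 2. At 500 mg/L it read 19.99, 40.6, 39.9, 12.7 and 35.0 CPM, and at 10 mg/L 7.40, 16.1, 8.60, 6.19 and 11.2 CPM. The control sets were more than their spread apart, with a log2 difference of 1.73 (SE 0.29, edgeR adjusted p = 0.0214). The whole coding sequence of Cox7c, 63 codons and a stop, is identical to the annotated transcript of the processed pseudogene Gm12338 in the GENCODE transcripts of GRCm38. The stretch is shown because a read lying wholly within it cannot be assigned to 1 of the 2 genes. It is bases 230 to 421 of the 540-base Cox7c transcript, on the transcript strand, with the start and stop codons in capitals.
Cox7c and Gm12338: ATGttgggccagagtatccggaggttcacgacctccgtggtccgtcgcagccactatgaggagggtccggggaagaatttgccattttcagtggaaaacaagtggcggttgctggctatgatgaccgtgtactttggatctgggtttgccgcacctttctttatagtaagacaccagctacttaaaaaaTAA

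Gm12338 has a row of its own in the count table and held most of the counts. In the controls of experiment 1 it had 120 ± 9.16 CPM and in those of experiment 2 118 ± 5.79 CPM, with 111 ± 12.3 CPM at 500 mg/L and 112 ± 20.8 CPM at 10 mg/L (SD, n = 5 each). Cox7c made up 16.5% ± 2.91 of the sum of both genes in the controls of experiment 1, 5.69% ± 0.862 in those of experiment 2, 21.1% ± 8.93 at 500 mg/L and 8.64% ± 5.10 at 10 mg/L. Summed, the genes read 144 ± 8.34 and 125 ± 5.64 CPM in the control sets, 140 ± 5.48 CPM at 500 mg/L and 122 ± 17.1 CPM at 10 mg/L. With the counts summed, an alternative added after seeing the data, the log2 difference between the control sets was 0.20 (SE 0.08, edgeR adjusted p = 0.398), so Cox7c no longer passed. Gm12338 alone stood at 0.03 (SE 0.11, adjusted p = 0.965). Leaving out control replicate 2, 3, 5, 6 or 8 also ended the call of Cox7c taken alone, with adjusted p of 0.0558, 0.0658, 0.0789, 0.0533 and 0.0562 and log2 differences of 1.66 to 1.78. Its change against the controls of the same experiment turned from 0.33 to −0.03 at 500 mg/L and from 0.48 to −0.03 at 10 mg/L when the counts were summed, and at neither dose did either value pass. Without replicate 2 the value of Cox7c alone at 10 mg/L was 0.24. Per kilobase, Cox7c stood at 32.5 CPM alone and at 246 CPM with the counts of Gm12338.

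**Figure D4:**
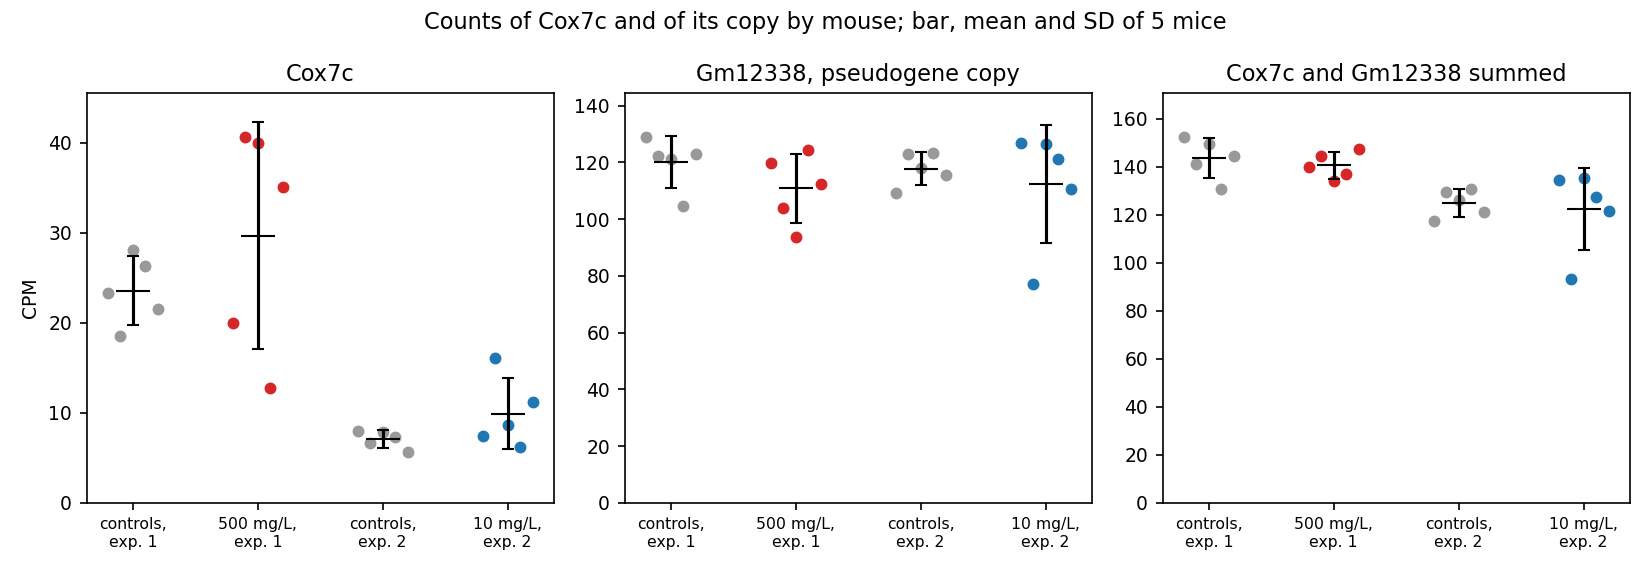
CPM by mouse of Cox7c, of its pseudogene copy Gm12338 and of their sum, in the 4 groups, with the mean and SD of 5 mice. Cox7c alone separates the control sets (18.5 to 28.1 against 5.67 to 7.97 CPM), while their sum lies between 131 and 152 CPM and between 117 and 130 CPM in the control sets. At 10 mg/L the sum runs from 93.4 (replicate 2) to 135 CPM.

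A search of the transcripts for stretches of at least 101 bases at 95% identity or more found pseudogene copies of 23 of the 89 genes with a matched transcript. Rows under other names can be missed. Ndufs5-ps, with at most 98.2 counts in a mouse, and Cox7c-ps1, with at most 6.04, have rows that this match did not find. For 5 of the 23 genes a copy was matched by symbol or Entrez identifier to a row in the count table. The other one with many counts was Ndufb4, a complex I subunit, which shares 390 bases at 100% identity with Ndufb4c, itself among the 91 genes and annotated there as a processed pseudogene. Ndufb4c read 48.7, 48.3, 52.2, 48.7 and 47.3 CPM in the controls of experiment 1 and 34.8, 38.4, 40.4, 43.6 and 41.2 CPM in those of experiment 2, without overlap. Its log2 difference was 0.31 (SE 0.06, edgeR adjusted p = 0.0532). Ndufb4 itself stood at 0.07 and overlapped. Summed, they read 61.7 ± 1.48 and 51.7 ± 3.43 CPM in the control sets (SD, n = 5 each), with a log2 difference of 0.25 (SE 0.06, edgeR adjusted p = 0.105).

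**Figure D5:**
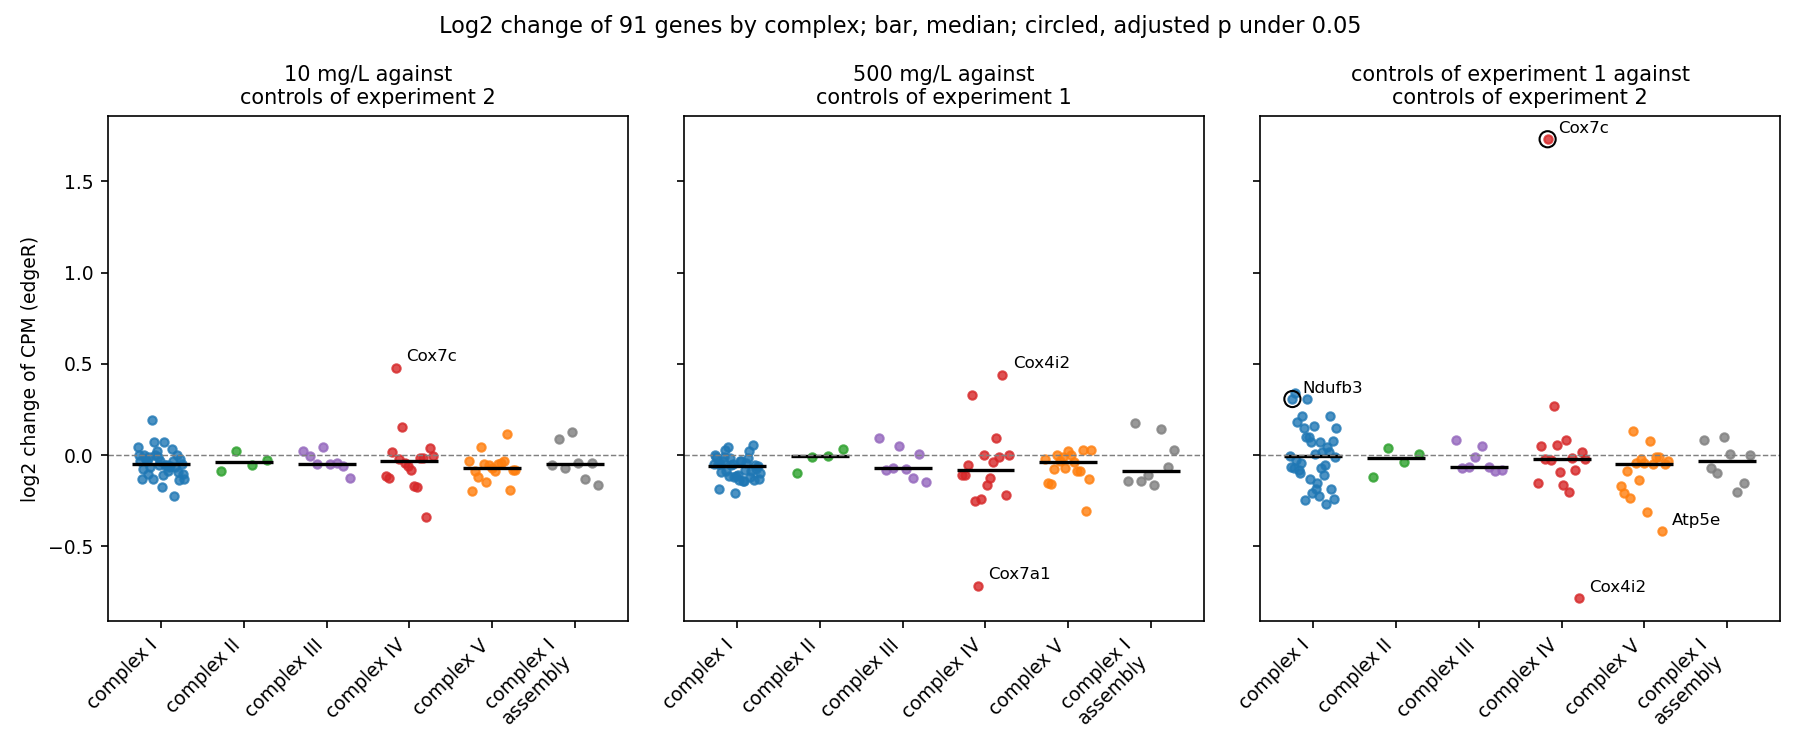
Log2 change of each of the 91 genes by complex against the controls of the same experiment at 10 and 500 mg/L, and between the control sets, with the median of each class as a bar and genes past the adjusted threshold circled. Cox7c and Ndufb3 are the 2 genes circled, both between the control sets; class medians at 500 mg/L run from −0.086 to −0.007.

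The authors' deposited table, which set each dose against all 10 controls, called a few subunits. At 10 mg/L, the authors' deposited table gave an adjusted p under 0.05 to 1 of the 91 genes, Ndufa1 of complex I, with a signed fold of −1.21 and an adjusted p of 0.043. At 500 mg/L the authors' deposited table called 4, Atp5e (−1.43, adjusted p 0.0231), Ndufa4 (−1.19, 0.0244), Ndufb6 (−1.17, 0.0487) and Atp5g3 (−1.15, 0.0491). The same contrast of Ndufa1 here was −0.25 (SE 0.11, edgeR adjusted p = 0.761), and −0.14 without replicate 2. Ndufa1 read 30.6, 20.8, 34.0, 34.3 and 31.3 CPM at 10 mg/L, 29.9, 32.7, 33.0, 30.4 and 33.0 CPM in the controls of its own experiment and 38.8, 44.5, 37.8, 39.8 and 40.3 CPM in the other controls. Replicate 2 was its lowest mouse at 10 mg/L, the other 4 overlapped the controls of experiment 2, and all 5 lay below the controls of experiment 1. The authors' deposited table called 3 of the 91 genes between the doses, Ndufb3, Atp5e and Ndufa4. How many of all genes it called was not counted here, so the counts of 1, 4 and 3 have no background share.

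Genes around the chain did not pass either. Of 21 genes for electron carriers and the dehydrogenases that feed the chain, 0 passed against their own controls at either dose, with 8 of 21 positive at 500 mg/L (median −0.015) and 4 of 21 at 10 mg/L (median −0.058). Of 19 genes of the tricarboxylic acid cycle, 9 were positive at 500 mg/L (median −0.011) and 7 at 10 mg/L (median −0.039), and 0 passed. Of 22 regulators of mitochondrial biogenesis, 11 and 7 were positive (medians 0.009 and −0.030), and of 44 tested assembly factors with other symbols, 16 and 14 were (−0.031 and −0.053), with 0 passing in either list. Without replicate 2 the positive counts at 10 mg/L were 8 of 21 (median −0.034), 8 of 19 (−0.015), 6 of 22 (−0.036) and 20 of 44 (−0.007) in the order given, with 0 passing. At 500 mg/L against its own controls, oocyte markers were positive in 9 of 10 (360 to 713 CPM summed, against 334 to 531 CPM) and leukocyte markers in 1 of 8 (58.5 to 134 CPM against 85.5 to 217 CPM). Red cell markers were positive in 5 of 5 tested, at 31.0 to 133 CPM against 17.1 to 63.1 CPM, and smooth muscle and pericyte markers in 1 of 7, at 497 to 1184 CPM against 576 to 1094 CPM. Granulosa markers were positive in 6 of 10, theca markers in 5 of 8 and endothelial markers in 7 of 10. At 10 mg/L endothelial markers were positive in 10 of 10 (393 to 581 CPM against 316 to 441 CPM), oocyte markers in 1 of 10 (329 to 656 CPM against 412 to 642 CPM), smooth muscle and pericyte markers in 6 of 7 (546 to 1099 CPM against 524 to 872 CPM) and red cell markers in 5 of 5 (25.5 to 113 CPM against 17.0 to 75.8 CPM). Granulosa markers were positive in 3 of 10, theca markers in 3 of 8 and leukocyte markers in 5 of 8. Without replicate 2 the positive counts were 10 of 10 endothelial, 0 of 10 oocyte, 5 of 7 smooth muscle and pericyte, 4 of 5 red cell, 5 of 10 granulosa, 2 of 8 theca and 5 of 8 leukocyte markers. Their part in the values of the subunit genes was not tested.

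Promoters of respiratory genes are known for binding sites of nuclear respiratory factor 1 (NRF1), of ETS family factors such as GABP, and of YY1. RefSeq promoters of GRCm38.p6 were matched for 75 of the 91 genes, and the 250 bases before each start were searched on both strands. The NRF1 core TGCGCA was found in 15 of the 75 genes (20%) and in 7.36% of all 27025 genes with such a promoter. That background was not limited to the 17810 genes tested in the follicles and was not matched for expression or base content. The ETS motif CCGGAAG was found in 14 of 75 (18.7%) and in 7.83% of all genes, and the YY1 core AAGATGG in 1 of 75 (1.33%) and in 5.18%. Bases after the start were left out of the search, so the low YY1 count covers only matches before it. The NRF1 core was found in 7 of 33 genes of complex I, 2 of 3 of complex II (Sdha and Sdhd), 0 of 5 of complex III, 2 of 12 of complex IV and 3 of 15 of complex V. A match is a description of letters, and no binding was measured. The stretches below are shown for Cox6a1, which holds the NRF1 core, and for Atp5e, which holds the ETS motif, as they had the 2 smallest p at 500 mg/L against their own controls. They are free of annotated exons, run 5′ to 3′ on the strand of the gene, and have exact matches of the searched letters in capitals. Longer or variant forms stay in lower case, as with gcgcatgcgc near the 5′ end of the Cox6a1 stretch. Cox6a1 also holds an ETS motif within the 250 bases, outside the stretch printed. The Cox6a1 stretch is chr5:115348982-115349129 (minus strand, 148 bases) and the Atp5e stretch is chr2:174464106-174464351 (minus strand, 246 bases), both GRCm38.p6.
Cox6a1: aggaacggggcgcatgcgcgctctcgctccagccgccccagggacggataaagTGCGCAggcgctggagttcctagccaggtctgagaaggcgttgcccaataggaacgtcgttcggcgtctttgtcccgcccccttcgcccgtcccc
Atp5e: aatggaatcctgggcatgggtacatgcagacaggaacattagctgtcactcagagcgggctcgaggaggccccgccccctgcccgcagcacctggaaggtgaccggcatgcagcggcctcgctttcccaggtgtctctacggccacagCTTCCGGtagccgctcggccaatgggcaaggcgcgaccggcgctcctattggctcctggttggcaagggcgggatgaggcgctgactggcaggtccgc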

How the data were processed

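Poly(A)-selected, stranded libraries were read for 101 cycles from 1 end, per the labels' protocols. The build GRCm39 and the tools Salmon 1.2.0, FastQC 0.11.8, limma, edgeR and R 4.1.2 come from the submitters' processing notes. The deposited table holds expected counts per gene (Salmon estimates, which share a read that fits several transcripts), not normalised. Which annotation was indexed is not given in the sources used here. Per the file headers, the authors' deposited results table holds average log2 expression, p-values, adjusted p-values, an F score and signed fold changes.

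Counts were rounded. An edgeR 4.0.16 fit (R 4.3.3) used its expression filter (17810 genes), TMM scaling and two-sided quasi-likelihood F-tests, with Benjamini-Hochberg adjustment over all tested genes at 0.05 and 1 mean per group, or 1 per group and experiment. SE is from the F statistic. Alternatives used DESeq2 1.42.0, limma-trend (limma 3.58.1, prior count 2), other filters and scalings, only the groups compared, a replicate block, and each mouse left out. Fits were tested on simulated data. The members, gene lists and tests were chosen with earlier results of these data known. The genes named are the core subunits, per comparison the 4 with the smallest p and all that passed, the 8 most variable, the isoform pairs, and the 3 highest and lowest per complex, except 1 gene that is not reported here. Others, named because the authors' table called them, control sets did not overlap or a copy shares their sequence, were chosen after their values were seen, as were the motif letters, after longer forms had been searched. Same-numbered mice deviated together (r over 0.1) in 3 of 15 pairs, so numbers did not pair the mice. The sequence search used GENCODE vM21 transcripts of GRCm38, another build than the authors'.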

Additional observations from a re-analysis of the deposited data

Results flagged for a closer look

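In sets of 5 mice, 6 of 136 sets checked (4.41%) held a mouse far from the other 4, where chance flags about 1 in 20. In the controls of experiment 1, replicate 9 had a median deviation of −0.151 over complex IV, against −0.006 to 0.022 in the other 4. In the same group, replicate 8 read 11.9 CPM of Ndufb4, against 12.6 to 12.9 CPM. In the controls of experiment 2, replicate 2 read 10.3 CPM of Cox4i2, against 5.51 to 6.42 CPM. At 10 mg/L, replicate 4 read 2.87 CPM of Cox7a1, against 1.55 to 1.89 CPM, and 74.0 CPM of Atp5g1, against 58.9 to 60.1 CPM. Replicate 2 at 10 mg/L read 20.8 CPM of Ndufa1, against 30.6 to 34.3 CPM.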

How the results depend on the processing

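Subunit genes that passed were counted across 8 comparisons, up to 8 other settings and 20 fits that each left out 1 mouse. Of 219 such counts, 203 stayed at 0 where 0 was reported, or within 1.5 times a reported count above 0. Only between the control sets was the reported count above 0, so the 203 are mostly counts that stayed at 0. The median over the 91 genes at 500 mg/L against their own controls ran from −0.0637 to −0.0592 in the other settings and from −0.0836 to −0.0521 when 1 mouse was left out. At 10 mg/L it ran from −0.0541 to −0.0396 and from −0.0727 to 0.00794, positive without replicate 2 alone. Against all controls at 10 mg/L it was also positive only without that mouse. The SD of the mouse medians within groups, 0.0757, was larger than each reported median over the 91 genes. It is a spread of single mice pooled over the groups, not the error of a difference between groups. By group, the SD of the median deviation was 0.137 at 10 mg/L, 0.0389 at 500 mg/L, and 0.0391 and 0.0326 in the controls of experiments 1 and 2. No error was computed for the reported medians, which are descriptions. In the fits without 1 mouse, 65 to 77 of 91 genes were negative at 500 mg/L against their own controls, and 39 to 75 at 10 mg/L. The count at 500 mg/L against all controls rose from 0 to 1 with DESeq2, which called Atp5e among 84 genes in all. It rose to 2 with replicate number as a block. With that block the controls of experiment 1, numbered 6 to 10, carry no weight, since no exposed mouse has these numbers. The 500 mg/L mice are then set against the controls of experiment 2 alone, and the fit of both doses together rests on 10 mg/L against its own controls. No block could be fitted for 500 mg/L against its own controls, between the control sets or for the difference between the effects. The block changed no other count of calls and, with both doses together, turned Ndufs1 to −0.0041 and Sdha to −0.0266. Between the doses DESeq2 called 3 of the 91 genes, Atp5e, Cox7c and Ndufs7, among 114 genes in all, against 0 of the 91 reported. Between the control sets the 2 calls became 1 without a filter on low counts, 1 with only the groups compared and 1 with copies summed. They became 4 with a minimum of 1 CPM in 5 mice, and 5 with DESeq2, which passed 185 genes in all. When 1 mouse was left out they ran from 0 to 5 (5 without replicate 2 at 10 mg/L). With copies summed, Cox7c turned to −0.029 at 10 mg/L, −0.031 at 500 mg/L (each against its own controls) and −0.030 with both doses together. Values near 0 changed sign easily. Atp5e at 10 mg/L against all controls turned to 0.000339 with DESeq2 size factors, 0.00836 with a minimum of 1 CPM in 5 mice, 0.00997 with limma-trend and 0.000795 with only the groups compared, and ran from −0.0534 to 0.0532 when 1 mouse was left out. In those fits Ndufb3 ran from −0.0508 to 0.0108 at 10 mg/L and from −0.0270 to 0.00459 at 500 mg/L, each against its own controls. With both doses together, Sdha ran from −0.00875 to 0.0244, Sdhb from −0.00968 to 0.0235, Cox4i1 from −0.0516 to 0.0127 and Atp5a1 from −0.0394 to 0.00162. The cause of the other changes was not tested. The parts of depth and of spread between mice in the precision were not tested.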
